A study of Mus musculus with 11 samples.

Results

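The transcriptome of the metastatic melanoma line 4C11+ was compared with that of melan-a, the nonmalignant melanocyte line from which it descends. The comparison used 3 libraries of 4C11+ (replicates 1, 2 and 3) and 2 of melan-a (replicates 2 and 3), 5 of the 11 libraries held here, and melan-a replicate 1 was not analysed here. Total RNA was depleted of ribosomal RNA and sequenced with a stranded kit. Melan-a is a spontaneously immortalized mouse melanocyte line with a C57Bl/6 background, and 4C11+ was obtained from it by repeated rounds of detachment and re-adhesion. In mice, 4C11+ cells are known to form lung metastases. In shape, melan-a and 4C11+ cells are both epithelial. The intermediate lines of the model, premalignant 4C and 4C11-, a melanoma line that does not metastasize, look mesenchymal. Both lines were kept in RPMI with fetal bovine serum, and melan-a alone also received 200 nM PMA, a phorbol ester that activates protein kinase C. The effects of PMA and of the line therefore cannot be told apart. Each line is 1 cell line grown in replicate cultures, so the p-values measure the spread between cultures and not between independently derived tumors. That spread was estimated over all 11 libraries of the 4 lines, while the 2 melan-a libraries were less alike than those of 4C11+.

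Melanocytes make melanin inside melanosomes, which mature from a PMEL fibril scaffold and receive the enzymes tyrosinase, TYRP1 and DCT. MITF and SOX10 switch on the pigment genes, and the receptor KIT with its ligand KITL keeps melanocyte precursors alive. In melanoma, growth and survival signals that melanocytes receive from outside are often replaced by signals inside the tumor cell, cell-cycle brakes such as those of the *Cdkn2a* locus are often lost, and cells may shift between a pigmented state and an invasive state with mesenchymal genes.

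The deposited values are log2 CPM, read counts scaled to the size of the library on a log2 scale. All 11 libraries had the same highest value of 13.69 and medians of 4.565 to 4.576, as after a quantile normalization between libraries, which the sources used here do not name. A level, or a sum of levels in CPM, is thus a place on a distribution that the libraries share rather than an exact share of the reads of 1 library, and the depths below are approximate. Values are not divided by gene length, so levels are compared between lines and not between genes. The steps of single reads among the lowest values gave a depth of about 3500000 and 5820000 reads in melan-a replicates 2 and 3 and of 4070000 to 5470000 reads in 4C11+. A gene with no library of a line above 3 reads was treated as not detected in that line. Its difference is given as a lower bound from the value at 3 reads, without the fitted difference. The adjusted p beside a bound belongs to the fitted difference and does not test the bound. At 0 reads the 4C11+ libraries stand at -2.44, -2.44 and -2.58, so genes without reads there show little spread by construction. The melan-a libraries were less alike than those of 4C11+. Across genes, Pearson's r was 0.907 between the 2 melan-a libraries, 0.955 to 0.981 between 4C11+ libraries and 0.818 to 0.883 between the lines. The melan-a libraries differed by over 2 log2 units at 1240 genes, of which 697 were higher in replicate 2 and 543 in replicate 3, and the pairs of 4C11+ libraries at 257, 340 and 488 genes. *Tnc*, which encodes the matrix protein tenascin C, stood at 8.30 in melan-a replicate 2 and at -1.42 in replicate 3. The summed level of the 10 melanocyte markers was 1970 CPM in melan-a replicate 2, 9210 CPM in replicate 3 and 11300 to 13600 CPM in 4C11+. Of the 10 fibroblast markers 4 were deposited, with 1 of them at 3 reads or fewer throughout in each line, and their sum was 206 CPM in melan-a replicate 2, 19.8 CPM in replicate 3 and 25.8 to 45.0 CPM in 4C11+. Of the macrophage or leukocyte markers 3 were deposited, at 96.8 CPM in sum in melan-a replicate 2, 12.7 CPM in replicate 3 and 9.11 to 20.2 CPM in 4C11+. The 10-gene lists of other cell types had fewer members deposited. In the order melan-a replicate 2, melan-a replicate 3 and the range of 4C11+, the sum was 21.6, 7.51 and 6.21 to 17.5 CPM for 2 keratinocyte markers, 48.4, 17.9 and 27.4 to 28.6 CPM for 3 endothelial markers, 1130, 430 and 548 to 995 CPM for 6 Schwann or neural crest markers, and 40.8, 8.61 and 22.4 to 26.9 CPM for 5 muscle markers. Markers at 3 reads or fewer throughout melan-a numbered 0 (keratinocyte), 0 (macrophage or leukocyte), 1 (endothelial), 1 (Schwann or neural crest) and 2 (muscle). In 4C11+ they numbered 1, 0, 1, 0 and 3 in the same order. Among the markers at 3 reads or fewer in each of the 5 libraries were *Col3a1* of fibroblasts, *Cdh5* of endothelium and *Acta2* of smooth muscle. Of these lists, all but the melanocyte markers were highest in melan-a replicate 2. Their part in the results was not tested beyond the values given without that library. In RNA from whole cultures, fewer cells of a type and less RNA per cell cannot be told apart.

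Of 14272 genes tested, 2270 (15.9%) passed the test at an adjusted p under 0.05, 1197 of them higher in 4C11+ (8.39%) and 1073 lower (7.52%). The median difference over all genes was 0.03 log2 units, which the nearly shared medians of the libraries largely hold near 0. Among called genes whose libraries did not overlap, ranked by the difference or its bound, the 5 largest increases were in the pigment gene *Pmel*, *Arhgdib*, the serine synthesis enzyme *Phgdh*, *Nup210* and the pigment gene *Tyr*. The 5 largest decreases were in *Lgals3*, *Rhox5*, the histone gene *Hist1h1b*, the imprinted gene *Peg3* and *Pxdn*. In 1047 of the called genes the fitted difference exceeded 2 log2 units, 521 higher and 526 lower. This count takes undetected genes at their values of 0 to 3 reads and not at their bounds. No melan-a library was above 3 reads for 190 of the genes called higher, and no 4C11+ library for 237 of those called lower. The authors kept genes at or above 1 CPM in at least 4 libraries. A gene undetected in melan-a or in 4C11+ thus mostly needed a 4C or 4C11- library at that level to be kept. Detection of such genes in the intermediate lines, given below, is therefore partly fixed by the filter. The libraries of the lines did not overlap at 6653 genes (46.6%), which is a much wider set than the called genes. Leaving out 1 library at a time, 1089 genes were called without 4C11+ replicate 1, 1145 without 4C11+ replicate 2 and 1185 without melan-a replicate 2, and 770 of the 2270 (33.9%; 408 higher and 362 lower) kept their call without each of the 5 libraries in turn. Without 4C11+ replicate 3 the number called was 2327. With the spread estimated from these 5 libraries alone, 1446 genes were called. A gene named below as higher or lower kept its call without each library unless a library is named beside it. Counts within a gene list are to be read against the 8.39% higher and 7.52% lower of all genes. The lists and their members were chosen with earlier results of these data known. Their shares are thus a description and no independent test of a gene family. Medians of gene lists use the fitted differences. With genes that were not detected in 1 line set to their bounds, and genes detected in neither line left out, the median was -1.44 for receptor tyrosine kinases and turned positive for epithelial genes (0.13), S100 genes (0.19) and metastasis suppressors (0.06), and it moved by at most 0.23 in the other 32 of 36 lists.

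**Figure D1:**
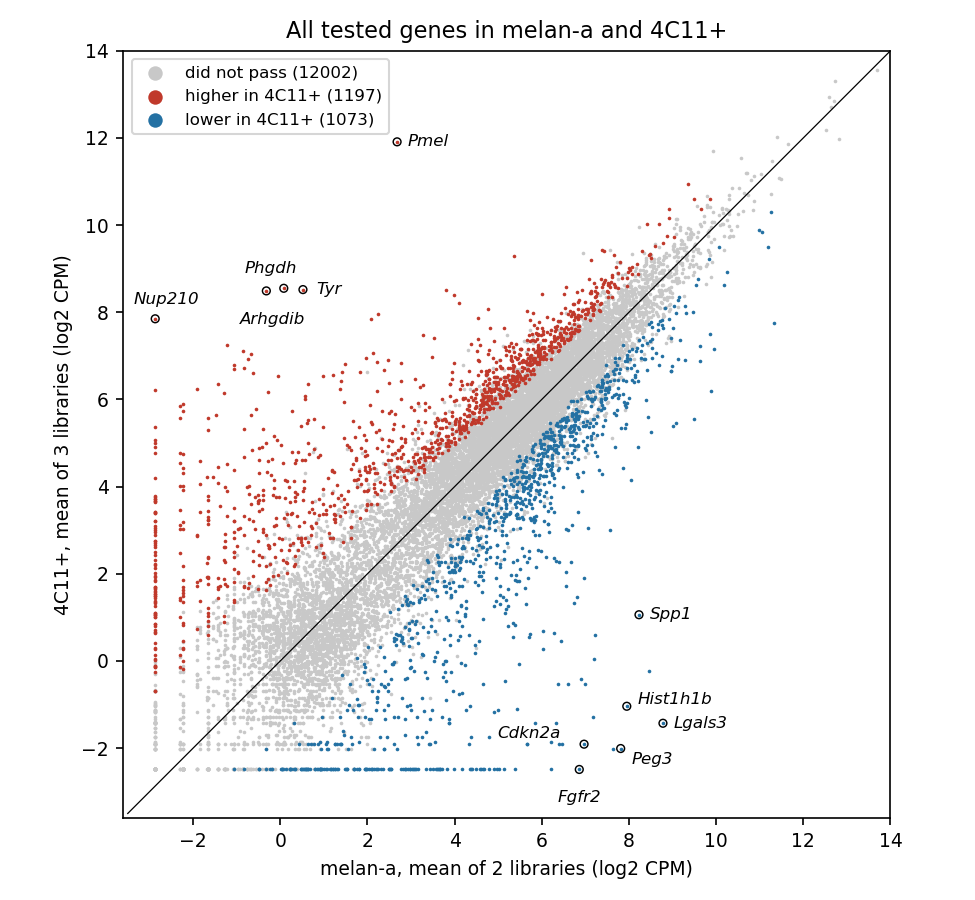
Mean log2 CPM of each of the 14272 tested genes in melan-a (x axis, 2 libraries) and in 4C11+ (y axis, 3 libraries), with genes at an adjusted p under 0.05 in red (1197 higher in 4C11+) or blue (1073 lower) and the line of equal values in black. *Pmel* stands far above the line at 11.91 in 4C11+ and 2.68 in melan-a, and *Lgals3*, *Peg3*, *Cdkn2a* and *Fgfr2* lie at or near the floor of 4C11+.

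Both lines carried the melanocyte signature, and within it *Tyr* and *Pmel* stood apart. *Tyr*, the rate-limiting enzyme of melanin synthesis, read -0.25 and 1.29 log2 CPM in melan-a replicates 2 and 3 and 8.46, 8.39 and 8.70 in the 4C11+ libraries, a difference of 8.0 (SE 0.59, adjusted p = 5.4e-06). *Pmel* read 2.41 and 2.95 in melan-a and 12.20, 11.72 and 11.81 in 4C11+, a difference of 9.23 (SE 0.56, adjusted p = 1.3e-06). For both genes each 4C11+ library stood far above both melan-a libraries, and the gap was much wider than the spread within either line. *Tyrp1* behaved otherwise. It read 8.51 in melan-a replicate 2 and 12.63 in replicate 3, which enclosed the 4C11+ values of 11.64, 11.64 and 11.39 (difference 0.99, SE 1.20, adjusted p = 0.62). *Dct* (1.78, adjusted p = 0.22), *Mlana* (1.86, adjusted p = 0.17), *Slc45a2* (2.41, adjusted p = 0.092) and *Oca2* (1.46, adjusted p = 0.37) had positive differences that did not pass. The *Tyr* value of melan-a rested on 3 reads in replicate 2 and 13 in replicate 3, and melan-a had *Tyrp1*, *Dct* and *Mlana* well above that level of single reads.

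The lineage regulators did not follow *Tyr* and *Pmel*. *Mitf* read 7.73 and 7.97 in melan-a and 6.38, 6.23 and 8.76 in 4C11+ (difference -0.73, SE 0.79, adjusted p = 0.57). *Sox10* read 9.05 and 7.88 in melan-a and 8.02, 7.68 and 8.34 in 4C11+ (-0.45, SE 0.68, adjusted p = 0.70). For both regulators the libraries of the lines overlapped. *Kit*, the melanocyte growth factor receptor, was lower in 4C11+, at 2.69, 2.17 and 4.22 against 6.92 and 6.18 (-3.53, SE 0.97, adjusted p = 0.030), but this call was lost without 4C11+ replicate 1 or 2 and without melan-a replicate 2 or 3.

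**Figure D2:**
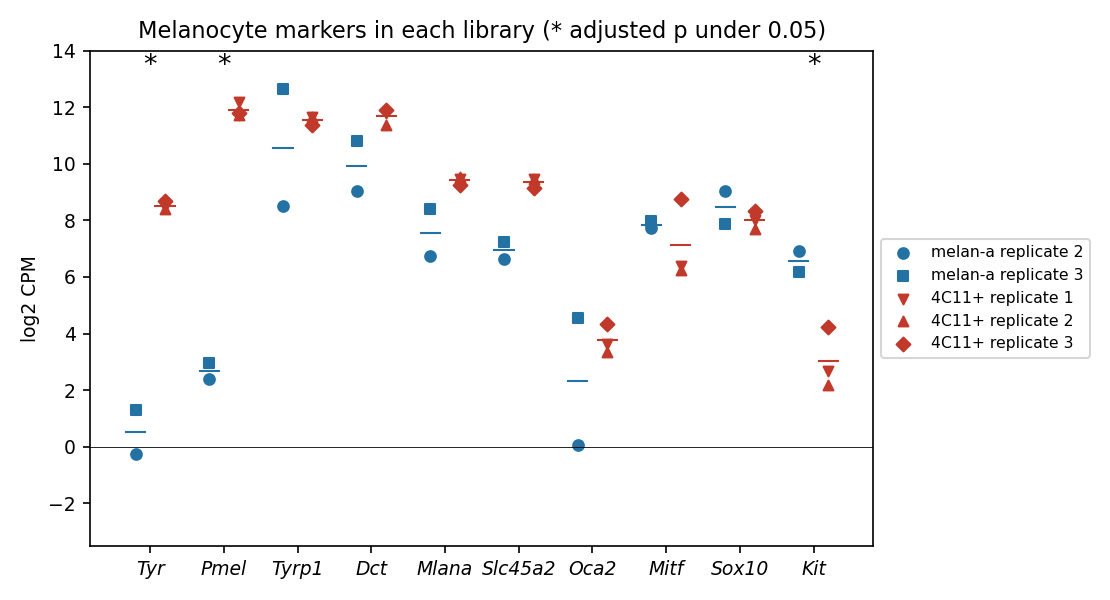
Log2 CPM of the 10 melanocyte markers (x axis) in each melan-a library (blue) and each 4C11+ library (red), with short lines at the group means and an asterisk at an adjusted p under 0.05. *Tyr* and *Pmel* separate the lines by 8.0 and 9.23 log2 units, *Kit* is lower in 4C11+, and the melan-a points of *Tyrp1* and *Oca2* lie far apart.

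Of the 20 pigment enzymes and melanosome proteins listed, 18 were deposited. Of these, 5 were higher in 4C11+, 0 were lower and 13 did not pass, with a median of 1.82 and 17 of 18 differences above 0. Beside *Pmel* and *Tyr* the called genes were *Tspan10*, a tetraspanin gene (4.29, SE 0.53, adjusted p = 0.00031), *Trpm1*, the melastatin channel gene (2.85, adjusted p = 0.022), and *Slc24a5*, a melanosomal cation exchanger that sets skin color (2.83, adjusted p = 0.032). *Trpm1* lost its call without 4C11+ replicate 1 or 2 or melan-a replicate 2, and *Slc24a5* without any 4C11+ library or melan-a replicate 2. The list had 3 genes higher without 4C11+ replicate 1, without 4C11+ replicate 2 and without melan-a replicate 2, 9 with log2(CPM + 1) in place of log2 CPM and 2 when only genes with a mean log2 value of at least 1 over all libraries were kept. In the mesenchymal lines these genes were near the floor, with means for *Tspan10* of -3.44 in 4C and -2.87 in 4C11- and for *Tyr* of -2.63 and -3.34.

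MITF binds the hexamer CATGTG, which is known from the promoters of pigment genes. RefSeq promoter windows of GRCm38.p6, from 250 bases before to 50 bases after each transcript start, were searched for this hexamer on both strands, where the other strand reads CACATG. Of the 5 pigment genes called higher, 4 had a window (*Tyr*, *Tspan10*, *Trpm1* and *Slc24a5*) and all 4 held the hexamer. Of the 13 pigment genes that did not pass, 10 had a window and 5 held it, among them *Tyrp1* and *Dct*. For comparison, 14.2% of all 32851 windows and 15.9% of the 27025 symbols in the table held it. In the window of *Tyr* the hexamer began 21 bases before the start, in *Tspan10* 21 bases, in *Slc24a5* 13 bases and in *Tyrp1* 46 bases, and *Dct* held it 150 and 232 bases before the start. *Trpm1* held it 141 bases before 1 start and 37 bases after another. The windows of 3 pigment genes that were higher in 4C11+ and of 2 that did not pass are shown 5′ to 3′ on the strand of the gene, with the hexamer in capitals. They lie at chr7:87493463-87493762 (minus strand) for *Tyr*, chr11:120442381-120442680 (plus strand) for *Tspan10*, chr2:125067877-125068176 (plus strand) for *Slc24a5*, chr4:80833963-80834262 (plus strand) for *Tyrp1* and chr14:118052197-118052496 (minus strand) for *Dct*.
*Tyr*: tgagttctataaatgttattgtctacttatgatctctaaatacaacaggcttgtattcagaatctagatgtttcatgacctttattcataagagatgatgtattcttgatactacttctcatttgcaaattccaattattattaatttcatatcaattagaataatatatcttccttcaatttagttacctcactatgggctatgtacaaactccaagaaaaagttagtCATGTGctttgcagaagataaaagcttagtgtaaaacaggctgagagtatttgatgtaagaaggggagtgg
*Tspan10*: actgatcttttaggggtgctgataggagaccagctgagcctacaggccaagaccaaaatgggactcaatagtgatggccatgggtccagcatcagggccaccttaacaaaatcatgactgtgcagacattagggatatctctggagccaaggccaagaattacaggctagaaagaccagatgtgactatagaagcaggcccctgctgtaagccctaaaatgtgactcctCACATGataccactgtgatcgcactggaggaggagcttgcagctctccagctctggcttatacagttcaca
*Slc24a5*: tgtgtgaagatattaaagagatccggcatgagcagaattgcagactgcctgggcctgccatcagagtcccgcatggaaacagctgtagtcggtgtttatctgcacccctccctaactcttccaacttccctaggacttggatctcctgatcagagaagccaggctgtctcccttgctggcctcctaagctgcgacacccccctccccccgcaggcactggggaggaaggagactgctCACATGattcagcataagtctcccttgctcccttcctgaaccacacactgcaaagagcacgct
*Tyrp1*: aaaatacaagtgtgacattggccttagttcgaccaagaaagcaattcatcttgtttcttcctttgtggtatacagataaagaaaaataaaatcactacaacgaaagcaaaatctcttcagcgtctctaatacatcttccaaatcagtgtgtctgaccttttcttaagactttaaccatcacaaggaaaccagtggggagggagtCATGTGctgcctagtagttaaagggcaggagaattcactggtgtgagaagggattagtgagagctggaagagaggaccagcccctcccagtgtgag
*Dct*: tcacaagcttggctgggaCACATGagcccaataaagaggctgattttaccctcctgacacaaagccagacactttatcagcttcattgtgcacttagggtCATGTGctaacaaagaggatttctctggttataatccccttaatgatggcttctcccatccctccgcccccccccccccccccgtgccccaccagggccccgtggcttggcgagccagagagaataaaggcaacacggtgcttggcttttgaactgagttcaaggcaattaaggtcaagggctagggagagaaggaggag

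Among 29 deposited genes of melanosome biogenesis and transport, 3 were higher (10.3%, against 8.39% of all genes), 0 lower and 26 did not pass (median 0.28). *Rab38*, a small GTPase that delivers tyrosinase to melanosomes, read 1.77 and 6.18 in melan-a and 8.34, 8.38 and 8.46 in 4C11+ (4.42, SE 0.95, adjusted p = 0.010). *Rab27a*, which tethers melanosomes to actin, read 3.18 and 4.80 in melan-a and 7.12, 6.69 and 6.68 in 4C11+ (2.84, SE 0.51, adjusted p = 0.0035). The melan-a replicates of *Rab38* lay over 4 log2 units apart, and still below each 4C11+ library. *Dtnbp1* (1.07, adjusted p = 0.023) lost its call without 4C11+ replicate 1 or 2 or either melan-a library. The list had 1 gene lower without melan-a replicate 3.

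Of 15 deposited melanocyte transcription factors, 1 was higher (6.67%, against 8.39% of all genes) and 2 were lower (13.3%, against 7.52%), with a median of -0.45. *Lef1*, the nuclear partner of beta-catenin, read 3.97 and 2.37 in melan-a and was not detected above 3 reads in 4C11+, lower by at least 3.14 log2 units (adjusted p = 0.00024), while its means were 4.22 in 4C and 4.25 in 4C11-. *Snai2* (-2.76, adjusted p = 0.037) lost its call without 4C11+ replicate 1 or 2 or either melan-a library, and *Tfe3* (0.92, adjusted p = 0.043) lost its call without 4C11+ replicate 1 or 2 or melan-a replicate 3. The count higher was 0 without 4C11+ replicate 1 or 2 and 2 without melan-a replicate 2, and the count lower was 1 without 4C11+ replicate 1 or 2 or melan-a replicate 2.

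Among 18 deposited melanocyte receptors and ligands, 3 were higher and 6 lower (median -0.38). *Ngfr*, the low-affinity nerve growth factor receptor of neural crest cells, was not detected in melan-a and read 3.53, 3.44 and 4.39 in 4C11+, higher by at least 4.18 (adjusted p = 0.0015). *Notch1* (-2.56, SE 0.48, adjusted p = 0.0047) and *Igf1r* (-1.52, SE 0.28, adjusted p = 0.0037) were lower. *Kitl* (3.62, adjusted p = 0.014) and *Jag1* (2.12, adjusted p = 0.011) lost their calls without melan-a replicate 2, which left 1 gene of the list higher. The transcripts of the receptor, *Kit*, and of its ligand, *Kitl*, thus differed in opposite directions. Both calls were lost without melan-a replicate 2, and that of *Kit* also without 4C11+ replicate 1 or 2 or melan-a replicate 3.

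Receptor tyrosine kinases had the largest share of lower genes of the 36 lists. Of 32 deposited members, 14 were lower (43.8%, against 7.52% of all genes), 3 were higher and 15 did not pass, with a median of -0.86. The count lower was 9 without melan-a replicate 2, and the count higher was 0 without 4C11+ replicate 1 and 1 without 4C11+ replicate 2. *Fgfr2* read 7.45 and 6.28 in melan-a and had 0 reads in all 3 libraries of 4C11+, a decrease of at least 6.84 (adjusted p = 8.9e-08). *Fgfr1* read 8.10 and 6.02 in melan-a and 3.37, 2.52 and 3.27 in 4C11+ (-4.0, SE 0.50, adjusted p = 0.00031). Both FGF receptors were high in the intermediate lines, with means of 6.86 in 4C and 6.77 in 4C11- for *Fgfr2* and of 7.15 and 7.47 for *Fgfr1*. *Ror1*, a Wnt5a receptor, was lower by at least 3.14 (adjusted p = 1.7e-06), and the ephrin receptors *Epha2* (-2.70, SE 0.27, adjusted p = 6.9e-05) and *Ephb2* (-2.08, SE 0.40, adjusted p = 0.0055) and the platelet-derived growth factor receptor *Pdgfra* (-2.79, SE 0.54, adjusted p = 0.0058) were lower.

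The TAM receptors AXL, MERTK and TYRO3 are activated by GAS6, and MERTK and TYRO3 also by PROS1. Both ligands bridge their receptors to exposed membrane lipid. *Axl* read 9.91 and 8.26 in melan-a and 5.24, 5.59 and 5.52 in 4C11+ (-3.64, SE 0.45, adjusted p = 0.00031). *Mertk* read 7.02 and 5.17 in melan-a and 2.64, 1.78 and 2.71 in 4C11+ (-3.71, SE 0.50, adjusted p = 0.00057). *Tyro3* was lower by a smaller amount (-1.49, adjusted p = 0.0088) and lost its call without melan-a replicate 2. The ligand *Gas6*, named here after its values were seen, read 6.59 and 6.06 in melan-a and had at most 1 read in a 4C11+ library and was lower by at least 6.30 (adjusted p = 6.1e-07), against means of 8.35 in 4C and 8.35 in 4C11-. *Pros1*, the other ligand and also named after its values were seen, was higher (1.35, adjusted p = 0.044), a call lost without any 4C11+ library or melan-a replicate 3.

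The PMA in melan-a medium makes protein kinase C and its targets of particular interest. Of 31 deposited genes of protein kinase C and D and diacylglycerol signalling, 5 were higher and 6 lower (median -0.73), and the count lower was 10 without melan-a replicate 3. Among the kinases themselves, *Prkcd* was lower (-1.56, SE 0.30, adjusted p = 0.0057), a call lost without melan-a replicate 2, and *Prkca* (-0.91, adjusted p = 0.12) and *Prkce* (-0.51, adjusted p = 0.31) did not pass. *Marcksl1*, a protein kinase C substrate that binds actin, was at -1.90 and -0.54 in melan-a, not above 3 reads, and at 7.10, 7.04 and 7.60 in 4C11+, higher by at least 7.64 (adjusted p = 0.00019). Its means in the lines without PMA were -2.30 in 4C and -1.39 in 4C11-. The chimaerins *Chn1* (5.92, SE 0.71, adjusted p = 0.00025) and *Chn2* (4.95, SE 0.66, adjusted p = 0.00055), which bind diacylglycerol and inactivate Rac, were higher, as was *Rasgrp2*, a Rap activator not detected in melan-a (by at least 4.47, adjusted p = 0.0030). The phospholipase C genes *Plcd1* (-2.49, SE 0.39, adjusted p = 0.0015) and *Plcg1* (-1.33, SE 0.25, adjusted p = 0.0042) were lower.

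Of 38 deposited ERK output and AP-1 genes, 2 were higher and 8 lower (median -0.77). *Dusp5*, a phosphatase induced by and acting on ERK in the nucleus, read 4.10 and 2.37 in melan-a and was not detected in 4C11+, lower by at least 3.21 (adjusted p = 0.00067). *Spry1*, an inhibitor of receptor signalling, read 4.85 and 4.59 in melan-a and 2.54, 2.39 and 2.54 in 4C11+ (-2.23, SE 0.40, adjusted p = 0.0037). *Jun* was lower (-3.01, adjusted p = 0.0091), a call lost without melan-a replicate 2. *Dusp6* (1.02, adjusted p = 0.14), *Dusp4* (-0.48, adjusted p = 0.58), *Spry4* (0.07, adjusted p = 0.97) and *Etv4* (0.24, adjusted p = 0.89), which are also induced by ERK, did not pass. The list had 3 genes lower without melan-a replicate 2, 4 without 4C11+ replicate 1 and 5 without 4C11+ replicate 2. Higher genes numbered 0 without 4C11+ replicate 2 or melan-a replicate 2, 1 without 4C11+ replicate 1 or 3 and 4 without melan-a replicate 3.

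Several genes of the epithelial to mesenchymal transition (EMT) were lower in 4C11+, although neither line is mesenchymal by morphology. Of 33 deposited EMT factors and mesenchymal proteins, 8 were lower (24.2%, against 7.52% of all genes) and 2 were higher, with a median of -0.37. *Spp1*, which encodes the secreted ligand osteopontin, read 7.94 and 8.52 in melan-a and 0.15, 1.32 and 1.70 in 4C11+ (-7.17, SE 0.54, adjusted p = 6.2e-06). *Fn1*, fibronectin, read 10.97 and 8.81 in melan-a and 6.09, 5.97 and 6.51 in 4C11+ (-3.70, SE 0.51, adjusted p = 0.00068), and *Thbs1*, thrombospondin 1, read 10.64 and 8.35 against 5.36, 5.70 and 5.59 (-3.94, SE 0.60, adjusted p = 0.0013). The repressor *Zeb1* read 0.87 and 2.09 in melan-a and had 0 reads in 4C11+, lower by at least 1.45 (adjusted p = 0.00060), against means of 5.26 in 4C and 4.84 in 4C11-. *Snai1* and *Twist1* were not detected in either line, with means of 4.58 and 1.42 in 4C and of 5.42 and 3.21 in 4C11-. *Vim*, the mesenchymal filament vimentin, did not pass (-0.37, adjusted p = 0.38). The count higher was 1 without 4C11+ replicate 2 and 4 without melan-a replicate 2.

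Of 40 listed epithelial adhesion genes and keratins, 17 were deposited, of which 3 were higher and 2 lower (median -0.43). *Jup*, plakoglobin of desmosomes, read 7.62 and 4.92 in melan-a and 2.09, 2.67 and 2.32 in 4C11+ (-3.91, SE 0.59, adjusted p = 0.0012). *Krt80* (2.24, adjusted p = 0.018) and *Cldn12* (1.30, adjusted p = 0.013) lost their calls without 4C11+ replicate 1 or 2 or melan-a replicate 2, which left 0 genes of the list higher. The count lower was 1 without 4C11+ replicate 1 or 3 or melan-a replicate 3. *Cdh1*, E-cadherin, was at 1.21 and 0.06 in melan-a and at 0.44, -0.24 and -0.70 in 4C11+ (-0.80, adjusted p = 0.45), near the level of single reads in both lines.

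The cell-cycle inhibitors of the *Cdkn2a* locus were not detected in 4C11+. *Cdkn2a*, which encodes p16INK4A and p19ARF, read 7.36 and 6.59 in melan-a and had 1, 0 and 0 reads in the 4C11+ libraries, lower by at least 6.95 (adjusted p = 1.2e-06). *Cdkn2b*, which encodes p15INK4B, read 5.26 and 3.89 in melan-a and had 0 reads throughout 4C11+, a decrease of at least 4.55 (adjusted p = 1.5e-06). The predicted transcripts *Gm12609* (1.63 and 1.96 in melan-a) and *Gm12610* (0.87 and 2.14) next to them also had 0 reads in each 4C11+ library. These 4 neighbours span bases 89274471 to 89463487 of chromosome 4 in GRCm38, 189 kilobases. *Mtap*, the deposited gene beside *Cdkn2a*, read 8.0 and 8.22 in melan-a and 8.40, 8.42 and 8.49 in 4C11+ (0.33, SE 0.21, adjusted p = 0.32). In the intermediate lines *Cdkn2a* had means of 6.57 in 4C and 7.30 in 4C11-, and *Cdkn2b* of 4.67 and 5.15. Expression was measured, not the DNA of the locus.

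The transcription factor p53 halts the cell cycle after stress. Of 30 deposited p53 targets, 8 were higher (26.7%, against 8.39% of all genes) and 2 lower, with a median of 0.30. *Cdkn1a*, the p21 inhibitor of cyclin-dependent kinases, read 4.45 and 2.09 in melan-a and 7.48, 7.46 and 7.46 in 4C11+ (4.20, SE 0.62, adjusted p = 0.0011). *Ccng1* read 4.94 and 5.77 in melan-a and 9.24, 9.26 and 9.40 in 4C11+ (3.94, SE 0.54, adjusted p = 0.00066). *Mdm2*, the ubiquitin ligase that degrades p53 and is itself induced by it, read 5.40 and 5.91 against 8.06, 8.14 and 7.87 (2.36, SE 0.25, adjusted p = 8.6e-05). *Zmat3* (2.34, SE 0.26, adjusted p = 0.00017), *Aen* (2.38, SE 0.43, adjusted p = 0.0036) and *Ei24* (1.31, SE 0.25, adjusted p = 0.0057) were also higher, as were *Phlda3* (1.84, adjusted p = 0.010; lost without melan-a replicate 3) and *Bax* (1.38, adjusted p = 0.0085; lost without melan-a replicate 2). Means of *Cdkn1a* were 3.03 in 4C and 3.29 in 4C11-, and of *Mdm2* 5.65 and 5.52. *Ddb2*, a DNA repair gene of the same list, was lower (-2.65, SE 0.46, adjusted p = 0.0031), and *Trp53* itself did not pass (-0.60, SE 0.40, adjusted p = 0.34). The count lower was 1 without 4C11+ replicate 1 or 2 or melan-a replicate 2.

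The G1 list of cyclins, kinases and inhibitors had 30 deposited members, 5 higher and 4 lower (median 0.04). Beside *Cdkn1a*, the cyclin *Ccnd2* (2.08, SE 0.30, adjusted p = 0.0010) and the repressor *E2f6* (1.58, SE 0.26, adjusted p = 0.0020) were higher. *Ccnd1*, cyclin D1, did not pass (-0.87, adjusted p = 0.090). The list had 3 genes higher without melan-a replicate 2, and 2 lower without 4C11+ replicate 1 or 2 or melan-a replicate 2. Of 50 DNA replication genes, 5 were higher (10%, against 8.39% of all genes) and 0 lower (median 0.24). They were led by *Rrm2* (1.91, adjusted p = 0.038), a call lost without any 4C11+ library or melan-a replicate 2. *Orc2* (1.55, adjusted p = 0.020) lost its call without 4C11+ replicate 1 or 2 or melan-a replicate 2. The higher count was 0 without melan-a replicate 2, 2 without 4C11+ replicate 1 or 2, 3 without 4C11+ replicate 3 and 9 without melan-a replicate 3, and 1 gene was lower without 4C11+ replicate 3 or melan-a replicate 2. Of 45 mitosis genes, 2 were higher (4.44%, against 8.39% of all genes) and 4 lower (8.89%, against 7.52%), with a median of -0.07. *Kif20a* was at -1.35 (SE 0.27, adjusted p = 0.0071), a call lost without melan-a replicate 2. No gene of the mitosis list was higher without any 1 of the 4C11+ libraries or without melan-a replicate 2, and the lower count was 1 without 4C11+ replicate 2 or melan-a replicate 2 and 2 without 4C11+ replicate 1 or melan-a replicate 3.

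Canonical histone genes encode the histones made in S phase, and their transcripts, which end in a stem-loop and carry no poly(A) tail, are kept by total RNA libraries. Of 56 deposited members, 17 were lower and 4 higher, with a median of 0.34. Of the 17 lower genes, 12 were neighbours. This run, on chromosome 13 from base 21715763 to 21789213 of GRCm38, 73 kilobases, was lower throughout, with fitted differences from -4.43 to -8.99 and a median of -7.34. In 10 of the 12 no 4C11+ library was above 3 reads, and with these at their bounds the differences ran from -1.92 to -7.93 with a median of -5.70. The run held *Hist1h2bl*, *Hist1h2ai*, *Hist1h3h*, *Hist1h2bm*, *Hist1h4j*, *Hist1h4k*, *Hist1h2ak*, *Hist1h2bn*, *Hist1h1b*, *Hist1h3i*, *Hist1h2an* and *Hist1h2bp*, members of the H1, H2A, H2B, H3 and H4 families. *Hist1h1b*, a linker histone, read 6.86 and 9.04 in melan-a and had at most 3 reads in 4C11+, lower by at least 7.93 (adjusted p = 1.2e-05), against means of 7.90 in 4C and 8.87 in 4C11-. *Hist1h2bm* was lower by at least 7.15, *Hist1h2bn* by at least 6.96 and *Hist1h4j* by at least 6.59, and *Hist1h4k* read 6.35 and 8.03 in melan-a and -0.70, 0.15 and 0.69 in 4C11+.

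Outside the run, 36 deposited *Hist1* genes had a median of 0.49, with 5 lower and 2 higher. The deposited neighbours of the run were *Zkscan8* (-1.19) and *Hist1h4m*, which did not pass. *Hist1h4m* was not detected in 4C11+ either, nor was the next gene, *Hist1h4n*, which was lower. The run thus ends there by the rule for calls and not by detection in 4C11+. The lower genes outside the run were *Hist1h4n*, *Hist1h3b*, *Hist1h3d*, *Hist1h2bf* and *Hist1h4i*, of which *Hist1h4i* lost its call without melan-a replicate 3. *Hist1h1t*, the testis linker histone, was higher by at least 4.93 (adjusted p = 5.0e-05). None of the 8 deposited histone genes of other clusters was lower, and 2 were higher. Several of these genes are near-identical in sequence, so their reads could have been divided between copies in the counting. The higher count of the list was 1 without melan-a replicate 2 and 19 without melan-a replicate 3, and its lower count lay at 16 to 18 without each library.

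**Figure D3:**
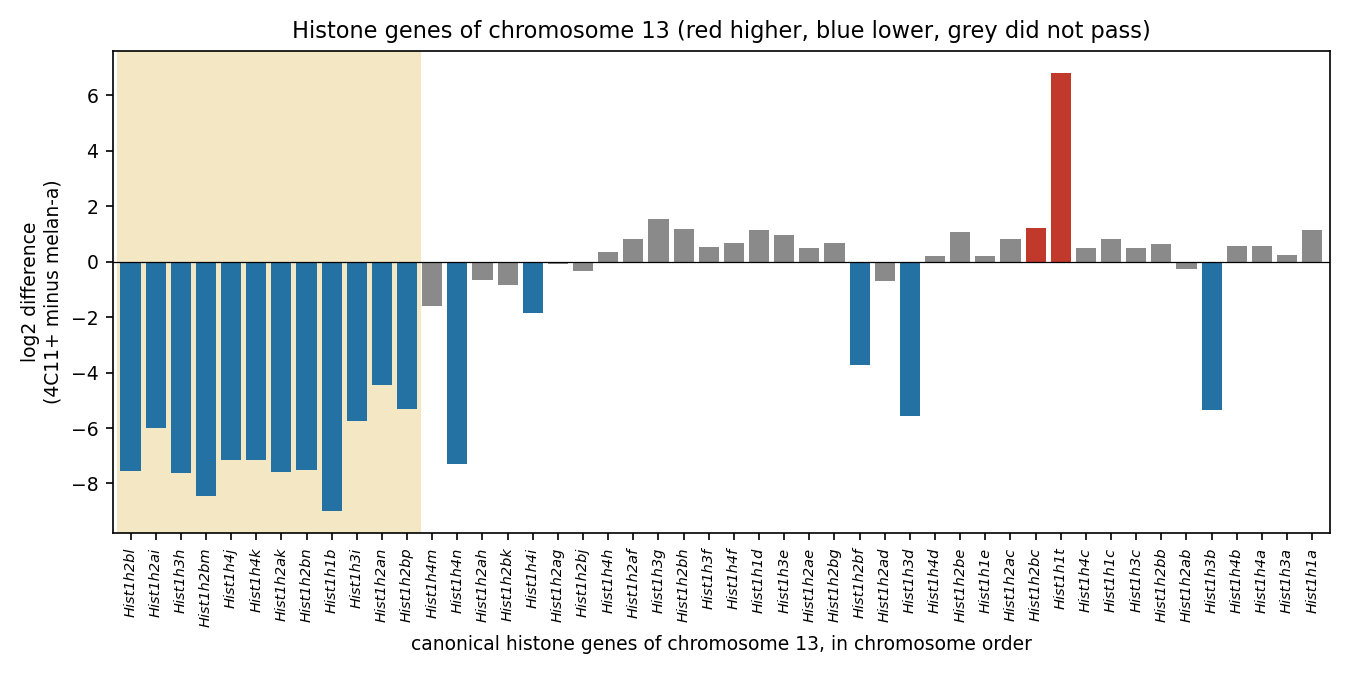
Fitted log2 difference of the 48 deposited histone genes of chromosome 13 (y axis, 4C11+ minus melan-a), in chromosome order along the x axis, with genes called higher in red, lower in blue and others in grey. The shaded run of 12 genes lies between -4.43 and -8.99, and most of the other genes lie near 0.

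Of 55 deposited collagen, laminin and matrix genes, 13 were lower (23.6%) and 5 higher (9.09%), with a median of -0.98. *Fbn2*, fibrillin 2, had 0 reads throughout 4C11+ and was lower by at least 3.65 (adjusted p = 6.1e-07). *Lama5* (-3.64, SE 0.51, adjusted p = 0.00076), *Col5a1* (-2.42, SE 0.33, adjusted p = 0.00067) and *Col16a1* (-1.91, SE 0.34, adjusted p = 0.0036) were lower. *Col4a2*, a basement membrane collagen, was higher, from 0.40 and -0.70 to 3.84, 4.54 and 4.04 (4.29, SE 0.50, adjusted p = 0.00021), and so was *Fbln1*, fibulin 1 (1.85, SE 0.31, adjusted p = 0.0025). This list depended on single libraries more than most, with 5 genes lower without melan-a replicate 2, 8 without 4C11+ replicate 1 or 2 and 23 without melan-a replicate 3, and 2 higher without any 1 of the 4C11+ libraries. *Tnc* did not pass (adjusted p = 0.15), with its melan-a values far apart as given above.

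Integrins are receptors for the extracellular matrix. *Itga3*, a laminin receptor subunit, read 6.90 and 6.73 in melan-a and 1.70, 1.68 and 1.04 in 4C11+ (-5.34, SE 0.30, adjusted p = 6.1e-07). *Itga9* read 0.40 and -0.70 in melan-a and 5.26, 5.11 and 5.13 in 4C11+ (5.32, SE 0.35, adjusted p = 2.2e-06). The intermediate lines had *Itga3* at 9.10 and 8.45 and *Itga9* at 5.40 and 6.46. Of 20 deposited integrins, 2 were higher (10%, against 8.39% of all genes tested) and 3 lower (15%, against 7.52%), with a median of -0.72. The higher count was 1 without any 1 of the 4C11+ libraries or melan-a replicate 3, and the lower count 1 without 4C11+ replicate 1. *Itgb1* (-0.41) and *Itgb3* (-0.57) did not pass. Of 27 deposited immunoglobulin-type and cadherin adhesion molecules, 7 were lower and 1 higher (median -0.69). *Jam2* (-2.61, SE 0.39, adjusted p = 0.0012), *Ncam1* (-2.09, SE 0.29, adjusted p = 0.00065) and the catenin *Ctnna1* (-1.54, SE 0.19, adjusted p = 0.00033) were lower, and *Nectin1* was lower by at least 1.02 (adjusted p = 0.0013). *Mcam*, a melanoma adhesion molecule, read 9.93 and 10.55 in melan-a and 8.58, 8.74 and 9.48 in 4C11+ (-1.31, adjusted p = 0.033), a call lost without 4C11+ replicate 1 or 2 or either melan-a library. The lower count was 4 without 4C11+ replicate 2, and the higher count 0 without 4C11+ replicate 1 and 2 without melan-a replicate 3.

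Among matrix proteases and their inhibitors, *Mmp2* and *Plat* fell and *Timp1* and *Timp3* rose. Of 34 deposited matrix proteases and inhibitors, 9 were lower and 4 higher (median -0.40). *Mmp2*, gelatinase A, read 8.23 and 6.90 in melan-a and 3.27, 2.81 and 2.92 in 4C11+ (-4.56, SE 0.46, adjusted p = 6.1e-05), and *Plat*, tissue plasminogen activator, 7.90 and 5.21 against 1.33, 1.78 and 2.97 (-4.53, SE 0.71, adjusted p = 0.0016). *Timp1* had 0 reads in melan-a and read 3.69, 4.00 and 3.56 in 4C11+, higher by at least 4.14 (adjusted p = 6.1e-07). *Timp3* read 0.40 and -0.70 in melan-a and 3.66, 3.24 and 5.02 in 4C11+ (4.12, SE 0.65, adjusted p = 0.0016). *Plaur*, the urokinase receptor, was also higher (2.19, SE 0.39, adjusted p = 0.0035). The lower count was 5 without melan-a replicate 2.

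Of 39 deposited Wnt ligands, receptors and regulators, 5 were higher and 9 lower (median -0.13). *Nkd2*, a pathway inhibitor, read 6.76 and 5.78 in melan-a and -0.70, 2.17 and 0.48 in 4C11+ (-5.62, SE 0.78, adjusted p = 0.00070). *Wnt5a* read 4.95 in melan-a replicate 3 and -0.25 in replicate 2, the value of 3 reads in that library. It had 0 reads throughout 4C11+ and was lower by at least 2.32 in the mean (adjusted p = 0.013), a bound that rests on melan-a replicate 3. The receptor *Fzd8* was lower by at least 2.06 (adjusted p = 0.00050). *Axin2*, a negative regulator and widely used readout of beta-catenin, was higher, from -1.90 and 0.22 to 3.41, 2.96 and 3.60 (4.17, SE 0.53, adjusted p = 0.00036), and *Wnt6* by at least 1.23 (adjusted p = 8.2e-05). *Axin2* and *Lef1*, both beta-catenin targets, differed in opposite directions. Without melan-a replicate 2 the counts were 2 higher and 5 lower.

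Of 42 deposited TGF-beta and BMP genes, 3 were higher (7.14%, against 8.39% of all genes) and 5 lower (11.9%, against 7.52%), with a median of -0.03. *Acvrl1*, the type I receptor ALK1, read -0.25 and -2.58 in melan-a, not above 3 reads, and 6.18, 6.27 and 6.59 in 4C11+, higher by at least 6.74 (adjusted p = 2.0e-05), with means of 5.56 in 4C and 4.86 in 4C11-. *Fstl1*, a secreted follistatin-like protein, was higher by at least 5.69 (adjusted p = 5.1e-06). *Ltbp1*, which tethers latent TGF-beta to matrix, was lower (-3.58, SE 0.47, adjusted p = 0.00048), as were the activin antagonist *Fst* (by at least 1.5, adjusted p = 0.0072) and *Bmp1* (-2.47, SE 0.46, adjusted p = 0.0047).

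NRF2 switches on detoxifying and antioxidant enzymes when KEAP1 releases it. Of 34 deposited KEAP1-NRF2 genes, 10 were higher (29.4%, against 8.39% of all genes) and 2 lower (median 0.48). *Akr1b8*, an aldo-keto reductase, read 0.87 and -2.58 in melan-a and 7.13, 7.43 and 6.76 in 4C11+ (7.97, SE 0.83, adjusted p = 8.2e-05). *Nqo1*, a quinone reductase and standard NRF2 target, read 2.65 and 2.86 against 7.01, 6.84 and 5.42 (3.67, SE 0.47, adjusted p = 0.00037). Glutathione transferases were among them, with *Gstp2* (5.13, SE 0.44, adjusted p = 1.65e-05), *Gsta4* (by at least 3.27, adjusted p = 0.00023) and *Gsta1* (2.93, SE 0.56, adjusted p = 0.0053), as were *Srxn1* (2.02, SE 0.34, adjusted p = 0.0024) and *G6pdx* (1.12, SE 0.21, adjusted p = 0.0042). Near-identical copies within the glutathione transferase families make the split of reads between their members uncertain. *Hmox1* (0.08, adjusted p = 0.95) and *Gclm* (-0.19, adjusted p = 0.73), also NRF2 targets, did not pass. Outside the list, the drug exporter *Abcc2* read 0.06 and -1.42 in melan-a and 7.23, 7.09 and 6.84 in 4C11+ (7.73, SE 0.74, adjusted p = 4.4e-05). The lower count of the list was 0 without 4C11+ replicate 2 or melan-a replicate 2 and 1 without 4C11+ replicate 1 or 3.

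Of 36 deposited genes of endoplasmic reticulum stress, 8 were higher (22.2%), 0 lower and 31 above 0 (median 0.79). *Xbp1*, the transcription factor of the unfolded protein response, read 4.97 and 4.84 in melan-a and 7.73, 7.72 and 6.57 in 4C11+ (2.44, SE 0.36, adjusted p = 0.0010), and *Edem1*, which helps to clear misfolded glycoproteins, was higher by 1.04 (SE 0.20, adjusted p = 0.0054). *Manf* (1.74, adjusted p = 0.015) and *Selenos* (1.74, adjusted p = 0.018) lost their calls without 4C11+ replicate 1 or 2 or melan-a replicate 2. The chaperone *Hspa5* did not pass (0.87, adjusted p = 0.10). The level differed within 4C11+, where *Ddit3* read 7.15 and 7.45 in replicates 1 and 2 and 4.99 in replicate 3. The higher count was 13 without 4C11+ replicate 3 and 2 without 4C11+ replicate 1, 4C11+ replicate 2 or melan-a replicate 2.

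Of 81 deposited genes of oxidative phosphorylation and PGC1, 11 were higher and 1 lower, and 59 were above 0 (median 0.38). *Cox7b*, a subunit of cytochrome c oxidase, read 6.69 and 6.76 in melan-a and 8.26, 8.12 and 8.23 in 4C11+ (1.48, SE 0.23, adjusted p = 0.0017). The other 10 higher members had differences of at most 1.21 and lost their calls without one or more libraries. The higher count was 1 without 4C11+ replicate 1 or 2 and 4 without melan-a replicate 2. *Ppargc1a*, the PGC1-alpha coactivator, read 5.92 and 5.82 in melan-a and 3.0, 2.81 and 4.15 in 4C11+ (-2.54, adjusted p = 0.021), a call lost without 4C11+ replicate 1 or 2 or either melan-a library, so that the lower count was 0 without 4C11+ replicate 1, 4C11+ replicate 2 or melan-a replicate 2.

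Of 31 deposited glycolysis genes, 5 were higher and 5 lower (median 0.10). The phosphofructokinase *Pfkp* (-1.74, SE 0.20, adjusted p = 0.00022) and the pyruvate dehydrogenase kinases *Pdk1* (-1.33, SE 0.25, adjusted p = 0.0047) and *Pdk2* (by at least 2.89, adjusted p = 0.0017) were lower, and the glucose transporter *Slc2a3* was higher (3.84, SE 0.84, adjusted p = 0.011), although melan-a replicates 2 and 3 stood at 4.03 and 0.06. The counts were 2 higher and 3 lower without melan-a replicate 2, and 3 higher without 4C11+ replicate 2 or 3. Of 59 deposited lysosomal and proton pump genes, 8 were higher and 2 lower (median 0.03). *Cln3*, a lysosomal membrane protein gene, was higher by at least 2.77 (adjusted p = 0.00082) and the proton pump subunit gene *Atp6v1d* by 1.17 (SE 0.23, adjusted p = 0.0058). The number of higher genes was 2 without 4C11+ replicate 1 or 2, 4 without either melan-a library, and 5 without 4C11+ replicate 3, and the lower count was 0 without melan-a replicate 2, 1 without 4C11+ replicate 1 and 6 without melan-a replicate 3.

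Of 56 deposited interferon-stimulated genes, 6 were lower (10.7%, against 7.52% of all genes) and 2 higher (3.57%, against 8.39%). Differences below 0 numbered 39 (median -0.75). *Trim25*, a ligase of the RIG-I pathway, read 5.79 and 5.32 in melan-a and 3.55, 3.13 and 3.25 in 4C11+ (-2.24, SE 0.34, adjusted p = 0.0012). The lower count was 1 without melan-a replicate 2, 2 without 4C11+ replicate 1, 3 without 4C11+ replicate 3 and 13 without melan-a replicate 3, and the higher count 1 without 4C11+ replicate 1 or melan-a replicate 3 and 5 without melan-a replicate 2. Of 26 deposited antigen presentation genes, 4 were higher and 4 lower (median -0.29). *Ulbp1*, a ligand of the natural killer receptor NKG2D, was not above 3 reads in melan-a and read 3.66, 3.54 and 3.88 in 4C11+, higher by at least 4.08 (adjusted p = 0.00021). *B2m*, the light chain of class I molecules, was lower (-1.54, adjusted p = 0.012), as was the class I activator *Nlrc5* (by at least 3.90, adjusted p = 0.0087), and both calls were lost without melan-a replicate 2. Among higher genes the count was 2 without 4C11+ replicate 1 or 2 or melan-a replicate 2, and the lower count 0 without melan-a replicate 2, 2 without 4C11+ replicate 1 or 2 and 7 without melan-a replicate 3.

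Of 44 deposited chemokines, cytokines and receptors, 3 were higher and 8 lower (median -0.13). *Tnfrsf21*, death receptor 6, read 5.21 and 4.39 in melan-a and had 0 reads throughout 4C11+ and was lower by at least 4.78 (adjusted p = 1.2e-05). *Ccl2*, a monocyte chemokine, was higher by at least 1.89 (adjusted p = 0.00031). The lower count was 1 without melan-a replicate 2 and 4 without any 1 of the 4C11+ libraries. Of 33 deposited genes of the BCL2 family and death receptors, 6 were lower and 2 higher (median 0.03), and neither count moved by over 1.5 times without a library. The lower genes included the activators of cell death *Bid* (-2.09, SE 0.29, adjusted p = 0.00071) and *Bcl2l11*, which encodes BIM (-2.26, SE 0.45, adjusted p = 0.0064), and the inflammatory caspases *Casp1* (by at least 3.77, adjusted p = 0.00042) and *Casp12* (by at least 3.12, adjusted p = 0.0032).

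Of 53 deposited histone lysine methyltransferases and demethylases, 2 were higher (3.77%, against 8.39% of all genes) and 4 lower (7.55%, against 7.52%), with a median of -0.43. *Kdm5c*, a demethylase of H3K4, kept its call without each library (-1.97, SE 0.28, adjusted p = 0.00081). The lower count was 1 without 4C11+ replicate 1 or melan-a replicate 2, 2 without 4C11+ replicate 2, and 7 without 4C11+ replicate 3 or melan-a replicate 3, and the higher count 1 without 4C11+ replicate 1 or 2 or melan-a replicate 2. Of 36 acetyltransferases and deacetylases, 4 were higher and 5 lower (median -0.22), with *Sirt1* at 1.65 (SE 0.34, adjusted p = 0.0075) and *Hdac1* at -1.14 (SE 0.23, adjusted p = 0.0071), both lost without melan-a replicate 2. Among higher genes the count was 1 without melan-a replicate 2 and 2 without 4C11+ replicate 1 or 2, and the lower count 0 without melan-a replicate 2, 2 without 4C11+ replicate 1 and 3 without 4C11+ replicate 2. Of 19 deposited DNA methylation genes, 3 were higher and 1 lower (median 0.17), with *Mbd3* at 1.47 (SE 0.30, adjusted p = 0.0072; lost without melan-a replicate 2). Higher genes numbered 1 without 4C11+ replicate 1 or melan-a replicate 2, and the lower count 0 without 4C11+ replicate 1 or 2 or melan-a replicate 3.

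Of 28 deposited imprinted genes, which are expressed from the copy of 1 parent, 6 were higher and 5 lower (median 0.18). *Peg3*, a paternally expressed zinc finger gene, read 8.14 and 7.49 in melan-a and had at most 1 read in a 4C11+ library and was lower by at least 7.79 (adjusted p = 2.3e-06), against means of 5.77 in 4C and 8.36 in 4C11-. Its neighbour *Usp29*, which shares its promoter region, was lower by at least 2.08 (adjusted p = 0.0043), and *Nespas*, of the *Gnas* cluster, by at least 2.07 (adjusted p = 0.00024). *Ppp1r9a* read -1.90 and 0.60 in melan-a and 4.13, 4.51 and 5.91 in 4C11+ (5.50, SE 0.84, adjusted p = 0.0013). Higher genes numbered 3 without 4C11+ replicate 1 or 2 or melan-a replicate 2.

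Of 37 deposited axon guidance genes, 3 were higher (8.11%, against 8.39% of all genes) and 4 lower (10.8%, against 7.52%), with a median of 0.02. *Sema4f* was higher (4.54, SE 0.78, adjusted p = 0.0029). The repellent *Sema3f* (-3.39, SE 0.42, adjusted p = 0.00031) and the ephrin *Efna1* (-2.89, SE 0.51, adjusted p = 0.0032) were lower. The lower count was 2 without 4C11+ replicate 1 or 2. Of 10 deposited S100 genes, 2 were higher and 1 lower (median -0.07). *S100a16* was higher by at least 3.59 (adjusted p = 0.0044) and *S100a6* by 1.83 (SE 0.36, adjusted p = 0.0062), and *S100a4*, a calcium-binding protein tied to motility, was lower (-3.66, SE 0.68, adjusted p = 0.0044), a call lost without melan-a replicate 2, where the lower count was 0, and the lower count was 3 without melan-a replicate 3.

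Metastasis suppressors are genes whose products restrain spread in experimental models. Of 27 deposited members, 6 were higher and 4 lower (median -0.22), and the lower count was 2 without melan-a replicate 2. *Arhgdib* read 0.06 and -0.70 in melan-a and 8.62, 8.22 and 8.63 in 4C11+ (8.81, SE 0.42, adjusted p = 2.0e-07), with means of 4.14 in 4C and 6.22 in 4C11-. *Timp3*, described above, and *Map2k4* (1.86, SE 0.27, adjusted p = 0.00098) were also higher, as was *Nme1* (1.54, SE 0.30, adjusted p = 0.0057; lost without melan-a replicate 2). *Gas1*, a growth arrest gene, read 4.78 and 3.53 in melan-a and 0.15, -2.44 and 0.06 in 4C11+ (-4.90, SE 0.68, adjusted p = 0.00072), and the actin-severing *Gsn* was lower (-2.74, SE 0.46, adjusted p = 0.0024).

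**Figure D4:**
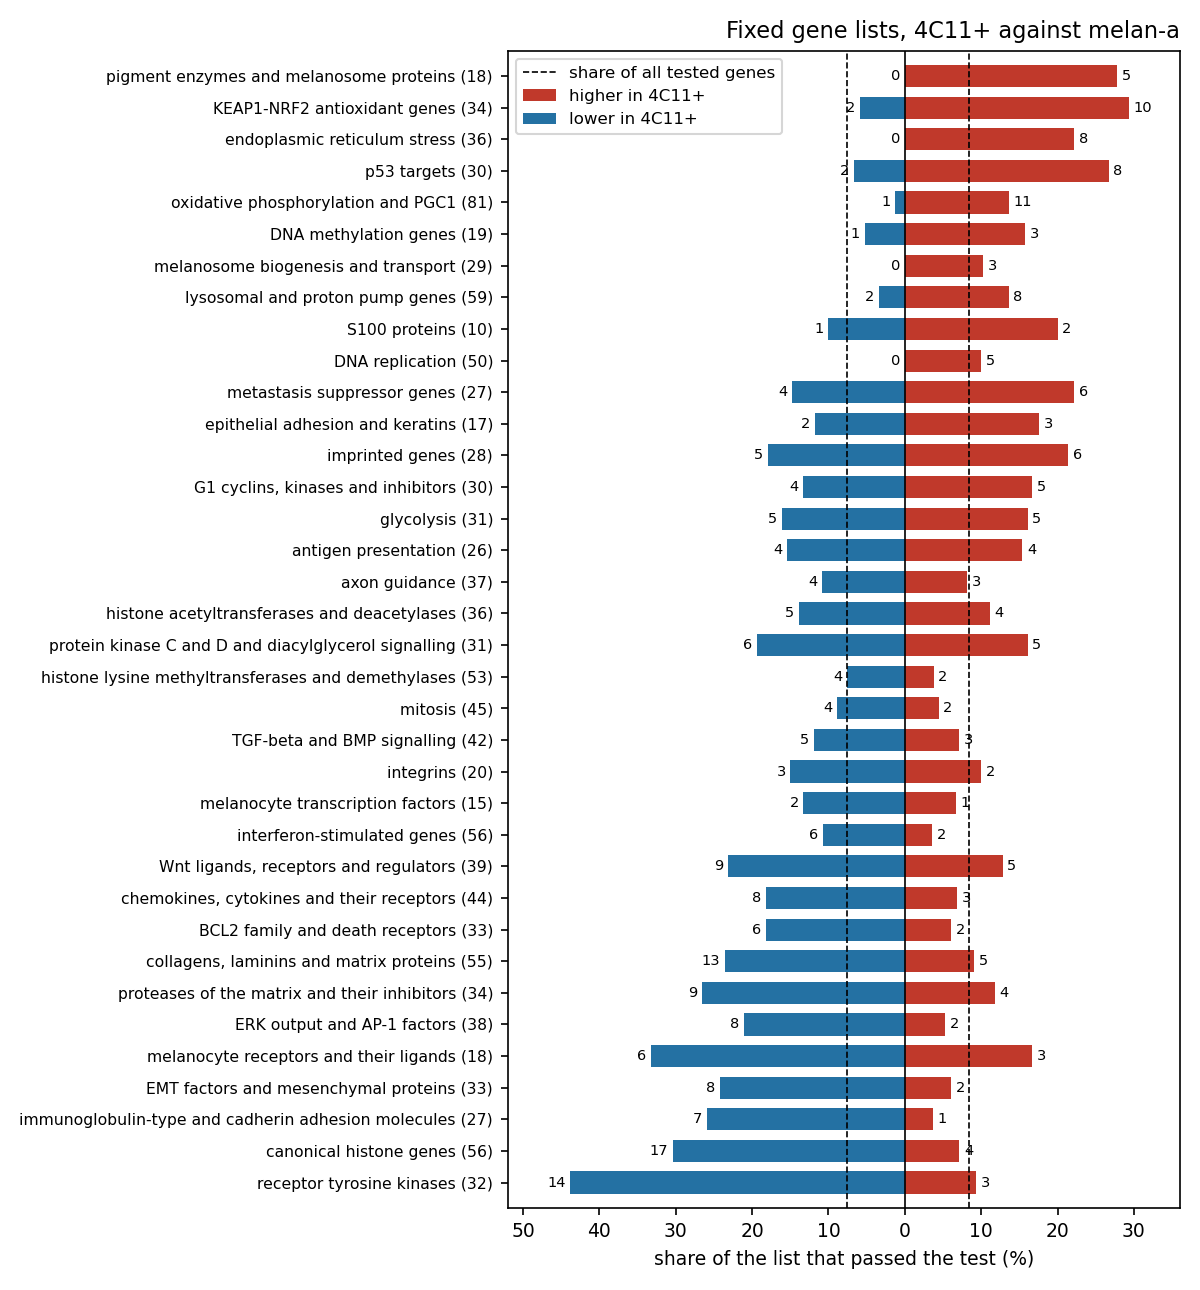
Share of the deposited members of each of 36 gene lists (list size in parentheses) that was higher in 4C11+ (red, to the right) or lower (blue, to the left), with the number of genes at the end of each bar and dashed lines at the shares of all tested genes (8.39% and 7.52%). Receptor tyrosine kinases reach 43.8% lower, KEAP1-NRF2 genes 29.4% higher and pigment genes 27.8% higher. The lists were chosen with earlier results of these data known.

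Several of the largest single changes lay outside these lists. *Nup210*, a nuclear pore protein gene, had 0 reads in each melan-a library and read 7.79, 7.84 and 7.92 in 4C11+, higher by at least 8.24 (adjusted p = 5.0e-05), with means of 0.14 in 4C and -0.48 in 4C11-. *Phgdh*, which opens serine synthesis, read 0.87 and -0.70 in melan-a and 8.65, 8.82 and 8.17 in 4C11+ (8.46, SE 0.41, adjusted p = 2.0e-07), and was also high in 4C (7.68) and 4C11- (8.02). *Enpp2*, which encodes the lysophospholipase autotaxin, read -1.90 and -0.24 in melan-a and 6.94, 6.11 and 7.30 in 4C11+ (7.85, SE 1.01, adjusted p = 0.00040). *Gsdmc*, a gasdermin, was higher by 7.67 (SE 1.08, adjusted p = 0.00075) and *Fam234b* by 7.10 (SE 0.82, adjusted p = 0.00019). *Sparcl1*, a matricellular protein gene, was higher by at least 7.12, the mitochondrial *Chchd10* by at least 7.08 and the coagulation inhibitor *Tfpi* by at least 7.01. *Sparcl1* was also high in 4C (6.10) and 4C11- (6.73), whereas *Chchd10* was at -2.30 and -1.70 there.

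On the lower side, *Lgals3*, the lectin galectin 3, read 8.85 and 8.71 in melan-a and had at most 1 read in a 4C11+ library and was lower by at least 8.76 (adjusted p = 2.2e-06), with means of 7.41 in 4C and 6.22 in 4C11-. *Rhox5*, a homeobox gene of the X chromosome, read 8.14 and 8.76 in melan-a and -0.24, -0.70 and 0.28 in 4C11+ (-8.66, SE 0.30, adjusted p = 6.2e-08). *Pxdn*, a peroxidase that cross-links collagen IV, was lower by at least 7.62 (adjusted p = 9.7e-08), the receptor phosphatase *Ptprf* by 7.31 (SE 0.85, adjusted p = 0.00021), the actin-binding *Tagln2* by 6.60 (SE 0.40, adjusted p = 1.2e-06) and the molybdenum cofactor gene *Mocos* by 6.54 (SE 1.04, adjusted p = 0.0018). *Lgals3*, *Rhox5* and *Tagln2* had means above 6 in both intermediate lines, *Pxdn* read 7.51 in 4C and 6.67 in 4C11-, and *Ptprf* 6.43 and 6.22.

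Homeobox genes of the *Hoxa* cluster, which give cells their position along the body axis, formed a run of neighbouring deposited genes that were all higher in 4C11+. *Hoxa5*, *Hoxa6*, *Hoxa7*, *Hoxa9* and *Hoxa10* and the transcript *5730596B20Rik*, on chromosome 6 from base 52177498 to 52240854 of GRCm38, had no melan-a library above 3 reads. *Hoxa10* read 5.91, 6.20 and 5.55 in 4C11+, higher by at least 6.28 (adjusted p = 9.0e-08), *Hoxa7* was higher by at least 3.34, *Hoxa5* by at least 2.82, *Hoxa9* by at least 2.25 and *Hoxa6* by at least 2.10. The cluster was also on in the intermediate lines, with means of 5.71 in 4C and 5.62 in 4C11- for *Hoxa10* and of 4.40 and 3.95 for *Hoxa9*. Detection there is partly fixed by the filter on the deposited genes given above. *Hoxa11*, next to the run, read 2.72 in 4C11+ replicate 2 and at most 1 read in the other 4C11+ libraries, and did not pass (adjusted p = 0.14).

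Runs were of 4 or more neighbouring deposited genes, all called and all past 2 log2 units in the same direction by the fitted difference. The fitted difference takes undetected genes at their values of 0 to 3 reads, and the bounds of some members lie under 2 log2 units. Such runs numbered 1 on the higher side, the *Hoxa* run, and 6 on the lower side, among them the histone run and the *Cdkn2a* run. On chromosome 15, from base 74702301 to 74753046, *Jrk* (4.45 and 2.89 in melan-a), *Them6* (4.97 and 3.76) and *Slurp1* (0.63 and 0.75) had 0 reads in each 4C11+ library, lower by at least 3.64, 4.34 and 0.67, and *Lynx1* was lower by at least 1.05, a call lost without 4C11+ replicate 1 or 2 or melan-a replicate 2. The means of *Them6* were 5.55 in 4C and 5.55 in 4C11-. *Ly6e*, the next deposited gene, read 5.61 and -1.42 in melan-a and was not above 3 reads in 4C11+, and did not pass (adjusted p = 0.072).

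The share of called genes varied between chromosomes, which is given as a description with no test. On chromosome 12, 21.6% of 514 tested genes were higher and 1.17% lower, with a median of 0.61, and on chromosome 11, 20.1% of 1137 were higher and 4.40% lower, with a median of 0.47. On chromosome 14, 1.71% of 467 genes were higher and 19.3% lower, with a median of -0.54. Chromosomes 4 (4.68% higher and 14.3% lower, median -0.34) and 8 (2.56% and 13.7%, median -0.33) had negative medians too, and chromosomes 9 and X each had a median of 0.35. The sign of the median on these chromosomes held for each 4C11+ library against the melan-a mean and for the 4C11+ mean against each melan-a library. Against melan-a replicates 2 and 3 alone it was 0.78 and 0.38 on chromosome 12, 0.54 and 0.50 on chromosome 11, and -0.46 and -0.60 on chromosome 14. The X chromosome varied more, at 0.58 and 0.15. No DNA copy number was measured in these libraries, and its part in these differences was not tested.

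**Figure D5:**
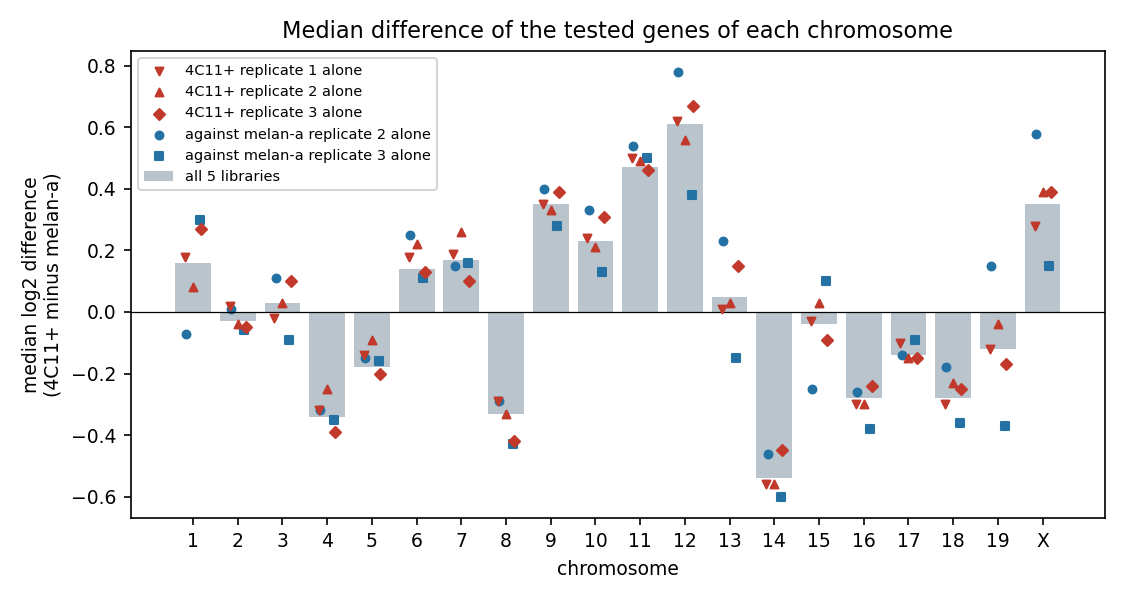
Median log2 difference (y axis, 4C11+ minus melan-a) of the tested genes of each chromosome (x axis), with bars for all 5 libraries, red points for each 4C11+ library against the melan-a mean and blue points for the 4C11+ mean against each melan-a library. Chromosomes 11 and 12 stand highest at 0.47 and 0.61 and chromosome 14 lowest at -0.54.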

How the data were processed

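Total RNA from replicate cultures of 4 mouse lines was sequenced, and melan-a replicate 1 was not analysed here. The authors trimmed reads with Trimmomatic, mapped them with STAR to GRCm38 (Ensembl 90), assigned them to genes with Rsubread, kept genes at or above 1 CPM in at least 4 libraries, and normalized with voom. The strand setting of the counting is not given in the sources used here. The deposited values are log2 CPM (counts scaled to library size) of 14272 genes, of which 14255 matched a symbol in GENCODE M21. All 11 libraries share 1 highest value and nearly 1 median, as after a quantile normalization, which the sources do not name.

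Differences were tested with limma 3.58.1 (R 4.3.3; mean-variance trend, all 11 libraries, no covariates) and Benjamini-Hochberg adjustment, two-sided, with calls below 0.05. Tables were made with Python 3.11.15, NumPy 2.4.6 and pandas 2.3.3. Reads were recovered from the steps of the lowest values, and bounds were set at 3 reads. Adjusted p-values come from the fitted differences, also where a bound is given. Named genes are the 15 of largest difference or bound in each direction whose libraries do not overlap, members of 36 gene lists, and runs of 4 or more neighbours. Members and lists were chosen with earlier results of these data known. Within lists, members that kept their calls without each library were preferred for naming after their values were seen. Scaling, pseudocount, filter, variance model, the replicate block and leaving out each library were varied.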

Additional observations from a re-analysis of the deposited data

How the results depend on the processing

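The count of 2270 called genes (1197 higher and 1073 lower) was 2382 with log2(CPM + 1), 1997 with a mean of at least 1, 2002 with no variance trend and 2262 with robust empirical Bayes. A further quantile normalization (2284) and a common median (2266) could move little, since the libraries already share their highest value and nearly share their medians, and they do not test the scaling. It was 1446 (778 and 668) with only the 5 libraries fitted and 491 (247 and 244) when the difference was tested against 1 log2 unit, which asks for a larger change by construction. Leaving out 1 library at a time, the counts ranged from 1089 without 4C11+ replicate 1 to 2509 without melan-a replicate 3, with 540 to 1240 higher and 473 to 1269 lower. Without 4C11+ replicate 2 the count was 1145 (554 and 591), without 4C11+ replicate 1 it was split as 540 and 549, and without melan-a replicate 2 it was 1185 (712 and 473). Without 4C11+ replicate 3 it did not drop, at 2327 (1224 and 1103). Each of these fits used 1 library fewer, and the causes of the drops were not tested.

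Correlations of deviations between libraries of the same replicate number were weakly positive, at 0.0801 for replicate 2 and 0.147 for replicate 3. Only 2 numbers are shared, and these values cannot decide whether the replicates were paired. With the replicate block 965 genes were higher and 965 lower (1930 in all).

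Of 72 counts over the gene lists (higher and lower in 36 lists), 6 moved by over 1.5 times with log2(CPM + 1), 9 with a mean of at least 1, 9 with no trend, 24 with only the 5 libraries, 61 when tested against 1 log2 unit and 6 with the replicate block. The pigment list had 5 genes higher, 9 with log2(CPM + 1), 2 with a mean of at least 1 and 3 when tested against 1 log2 unit. With only the 5 libraries, matrix genes went from 13 to 6 lower, oxidative phosphorylation genes from 11 to 4 higher, lysosomal genes from 8 to 4 higher, ERK output genes from 8 to 4 lower, chemokines and cytokines from 8 to 4 lower, interferon-stimulated genes from 6 to 2 lower and antigen presentation genes from 4 to 1 lower. With no trend, oxidative phosphorylation genes were at 6 higher and lysosomal genes at 4, and with the mean filter imprinted genes went from 5 to 2 lower.

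With only the 5 libraries fitted, *Cldn12*, *Dtnbp1*, *Ephb2*, *Krt80*, *Lynx1*, *Mcam*, *Nlrc5*, *Pdgfra*, *Pros1*, *Rrm2*, *S100a6*, *Slc24a5*, *Slc2a3*, *Tfe3* and *Wnt5a* lost their calls, at adjusted p of 0.051 to 0.14. With log2(CPM + 1), *5730596B20Rik*, *Fst*, *Kitl*, *Lynx1* and *Nectin1* lost theirs. *Lynx1*, *Rrm2* and *Tfe3* lost theirs both with no trend and with the replicate block, *Mcam* with no trend and *Pros1* with the block.

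No gene called in the report changed direction in a setting fitted here. This was largely fixed beforehand, since the libraries of the lines did not overlap at 2268 called genes and overlapped at 2. Without overlap, leaving out a library or changing the pseudocount, filter or variance model cannot turn the sign of a difference. The unchanged directions in those settings therefore do not test the calls. Some differences that did not pass changed sign, and the cause was not tested. *Tyrp1* ranged from -1.08 without melan-a replicate 2 to 3.05 without melan-a replicate 3, *Oca2* from -0.79 to 3.71, *Tnc* from 0.57 to -9.15, *Sox10* from 0.13 to -1.04, *Vim* from 0.11 to -0.84, *Etv4* from -0.89 to 1.37 and *Spry4* from -0.68 to 0.81 in the same order. *Hmox1* ranged from -0.53 without melan-a replicate 3 to 0.70 without 4C11+ replicate 3, and *Gclm* from -0.43 without 4C11+ replicate 2 to 0.12 without 4C11+ replicate 3. With the replicate block, *Etv4* was at -0.22, *Hmox1* at -0.21 and *Spry4* at -0.29. Values of 0 to 3 reads move in steps of single reads, which limits the genes near that level.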
